A study of Mus musculus with 6 samples.

Results

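The Cyp2d genes of the mouse form a row of closely related cytochrome P450 genes on chromosome 15. The genes examined here are Cyp2d9, Cyp2d10, Cyp2d11, Cyp2d12, Cyp2d13, Cyp2d22, Cyp2d26, Cyp2d34 and Cyp2d40, taken by their names, with no threshold on their values. Of these 9 genes, 8 were listed in at least 1 liver library and 7 in every library, out of 21528 genes listed in any library. Cyp2d13 had no value in any of the 6 libraries, and RefSeq classes it as a transcribed pseudogene.

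Cytochromes P450 are haem enzymes of the endoplasmic reticulum that insert an oxygen atom into steroids, fatty acids and drugs, and they draw electrons from P450 reductase and cytochrome b5. The CYP2D subfamily handles many prescribed drugs in humans, where a single working gene remains, whereas the mouse carries several working copies and many pseudogenes. Most of the mouse copies are expressed in hepatocytes, and some, Cyp2d9 among them, are known to be higher in male than in female liver.

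Liver RNA of 3 WT and 3 TRIM24C52/55A mice of the C57BL/6 strain (a C57BL/6J background by the study's methods) was sequenced. Each library is labelled as a replicate and was taken as 1 mouse. In the TRIM24C52/55A mice both copies of Trim24 carry alanine in place of 2 cysteines of the RING domain, the part of the protein with ubiquitin ligase activity. The change was made with CRISPR/Cas9 in the germline and is present in every tissue, and the WT mice were littermates. All 6 mice were 5 months old and had been on a high-fat diet (HFD), with 60 kcal% fat, for 3 months, so that no chow-fed liver stands beside them. The labels give no sex for these animals, while the study describes its other HFD-fed livers of this age as male.

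Values are FPKM, the fragments assigned to a gene per kilobase of transcript and scaled to the size of the library, as deposited by the authors. All FPKM of a WT library added up to 644619 to 648221 and those of a TRIM24C52/55A library to 673244 to 676791, and the steps between low values put all 6 libraries between 0.962 and 1.04 times the depth of WT replicate 1. Fold changes are differences of mean log2(FPKM + 1), TRIM24C52/55A minus WT, from limma with Benjamini-Hochberg adjustment over the 12225 genes whose mean reached 0.5 FPKM, and for weakly expressed genes they come out smaller than the ratio of FPKM. Trim24 itself lay between 4.85 and 5.96 FPKM in WT and between 4.31 and 8.46 FPKM in TRIM24C52/55A livers, which cannot check the genotype because the knockin exchanges codons only. Of 6 hepatocyte markers, Alb had no value in any library, so that a missing value cannot be read as a lack of expression. The other 5 summed to 28333 to 29167 FPKM in WT and to 24427 to 26760 FPKM in TRIM24C52/55A livers. They did not move together: Apoa2 fell from 13538 to 8963 FPKM, and 3 of the 5 had a fold change above 0 (median log2 fold change 0.15). The 6 adipocyte markers summed to 5.38 to 9.21 FPKM in WT, to 16.9 FPKM in TRIM24C52/55A replicate 2 and to 0.240 and 1.005 FPKM in the other TRIM24C52/55A livers. Adipoq, Plin1, Lep and Retn measured 1.59 to 4.55 FPKM in TRIM24C52/55A replicate 2. Elsewhere only WT replicate 3 had values for them, Adipoq at 0.127 and Plin1 at 0.026 FPKM. The WT sums came mostly from Cfd (3.10 to 8.62 FPKM) and Cidea (0.590 to 2.98 FPKM). In TRIM24C52/55A replicate 2 Cfd was 2.54 and Cidea 0.889 FPKM, not above WT. Summed markers of Kupffer cells (145 to 188 FPKM in WT against 127 to 164 FPKM), endothelial cells (74.0 to 80.7 against 67.5 to 74.2 FPKM), stellate cells (112 to 118 against 111 to 133 FPKM), cholangiocytes (2.84 to 5.19 against 2.85 to 5.49 FPKM) and lymphocytes and neutrophils (5.61 to 12.2 against 2.77 to 7.59 FPKM) overlapped between the genotypes. Within these lists Lyve1, an endothelial marker, fell from 6.21 ± 1.89 to 2.07 ± 0.973 FPKM (SD, n = 3 each; log2 fold change -1.26, limma adjusted p = 0.0281), and all 6 Kupffer cell markers had a fold change below 0, with 0 of them called (2 at an unadjusted p under 0.05), where 65.5% of all genes tested were below 0 and 19% were lower at that unadjusted p. In such bulk samples fewer cells of a type and less RNA per cell cannot be told apart, and the part of these marker levels in the results below was not tested.

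The Cyp2d transcripts are so alike that their reads can be hard to assign, so their likeness is given before their values. In global alignments of the GENCODE M21 transcripts, Cyp2d9 was identical to Cyp2d11 at 93.4% of aligned bases, to Cyp2d10 at 92.0%, to Cyp2d12 at 91.4% and to Cyp2d34 at 90.0%. Cyp2d10 and Cyp2d11 were the closest members, at 94.4%. Cyp2d26 and Cyp2d22 stood apart, at 82.9% and 80.6% identity to Cyp2d9. The share of 31-base stretches of a transcript that also occur in another gene was 58.5% for Cyp2d11, 54.4% for Cyp2d10, 46.4% for Cyp2d9, 44.6% for Cyp2d40, 36.0% for Cyp2d12, 25.3% for Cyp2d34, 16.3% for Cyp2d26 and 10.1% for Cyp2d22. Most of the Cyp2d26 and Cyp2d22 transcripts is thus found in no other gene. How fragments that match several copies were divided is not given in the sources used here.

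**Figure D1:**
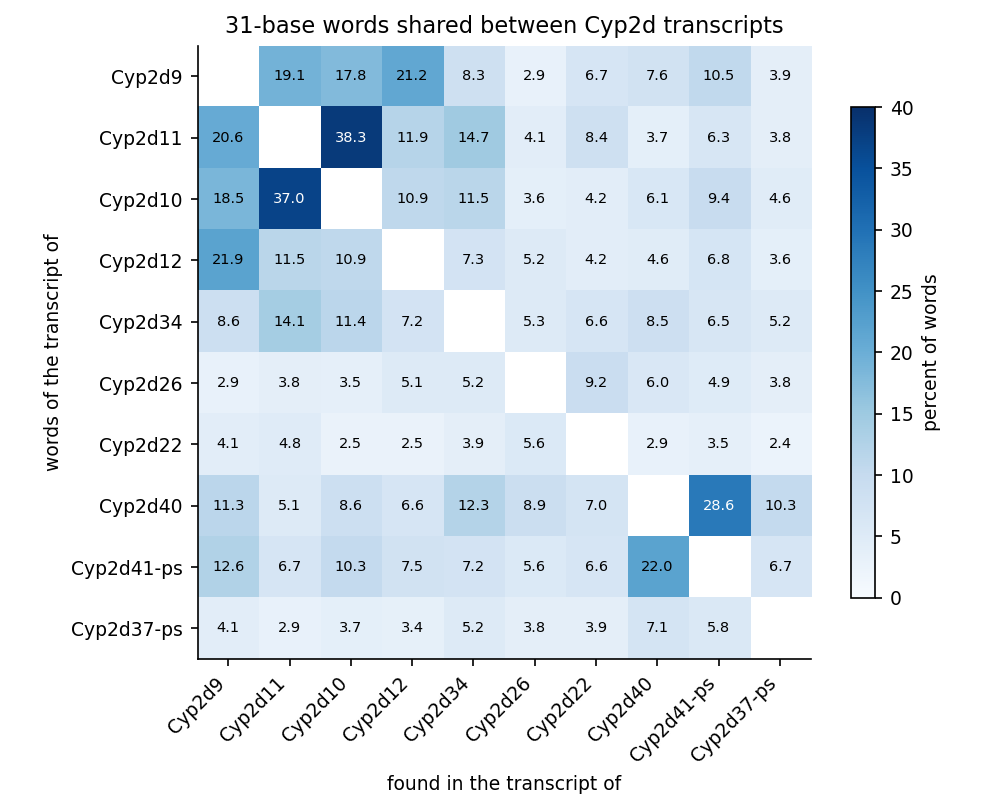
Shared sequence among the transcripts of 8 Cyp2d genes and 2 Cyp2d pseudogenes, one transcript per gene. Each cell gives the percent of the 31-base words of the row transcript that occur in the column transcript, up to 38.3% for Cyp2d11 in Cyp2d10, while the rows of Cyp2d22 and Cyp2d26 stay at or below 9.2%.

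The likeness reaches into the promoters. The 250 bases before the start of Cyp2d9 (chr15:82452127-82452376, plus strand) and of Cyp2d11 (chr15:82394023-82394272, minus strand) are shown because these flanks were 93.6% identical over 234 aligned bases, although Cyp2d9 was among the most highly expressed liver genes and Cyp2d11 was barely detected. Capitals mark TATAAA on either strand, which reads TTTATA on the strand opposite to it. Sequences are from RefSeq on GRCm38.p6, read 5′ to 3′ on the strand of the gene.
Cyp2d9: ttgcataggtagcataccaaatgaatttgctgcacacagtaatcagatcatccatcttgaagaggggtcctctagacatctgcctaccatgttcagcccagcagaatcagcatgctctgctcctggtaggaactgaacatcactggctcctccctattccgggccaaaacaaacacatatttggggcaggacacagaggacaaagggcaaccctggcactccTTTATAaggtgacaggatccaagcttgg
Cyp2d11: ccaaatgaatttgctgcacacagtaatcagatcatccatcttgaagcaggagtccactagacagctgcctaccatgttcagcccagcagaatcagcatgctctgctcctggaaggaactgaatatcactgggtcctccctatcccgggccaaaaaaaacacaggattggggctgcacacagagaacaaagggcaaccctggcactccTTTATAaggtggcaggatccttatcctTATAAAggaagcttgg

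The window of 30 bases around TTTATA is shown for the 5 members that matched the promoter table, since it lets the member that fell, Cyp2d26, be set beside those that did not.
Cyp2d9: ccctggcactccTTTATAaggtgacaggat
Cyp2d10: ccctggcactccTTTATAaggcagcaggat
Cyp2d11: ccctggcactccTTTATAaggtggcaggat
Cyp2d40: cctggacactccTTTATAaggtggtaggat
Cyp2d26: ccctcctccctcTTTATAagggaccaggtt
These windows lie at chr15:82452337-82452366, chr15:82407208-82407237, chr15:82394048-82394077, chr15:82764196-82764225 and chr15:82794259-82794288, the first on the plus and the others on the minus strand. The match began 28 bases before the start of Cyp2d9, 31 bases before those of Cyp2d10 and Cyp2d26 and 43 bases before that of Cyp2d11, which held a further match at 16 bases. These are the starts in the promoter table and in the deposited files, and the RefSeq gene intervals of Cyp2d10 and Cyp2d26 printed below reach further upstream and take in their windows. For Cyp2d40 it began 91 bases before the RefSeq start and 30 bases before the start used in the deposited files. TATAAA occurred in the same 250 bases of 12.4% of 32851 RefSeq promoters. Each of 3 further motifs, searched on both strands, had 0 matches in these 5 promoters, namely TTCNNNGAA, the core of a STAT5 site (in 7.02% of all promoters), CGGAAG, the core of a GABP site (13.6%), and CAAAGTCCA, an HNF4 site (0.384%). A match is only a run of letters, and the absence of a match in this window says nothing of the factor.

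Among the Cyp2d genes, Cyp2d9 and Cyp2d40 rose and Cyp2d26 fell in the TRIM24C52/55A liver. Cyp2d9 rose 2.12-fold and became the most abundant member, while Cyp2d26, the most abundant member in WT liver, fell to 0.748 times its WT level. Cyp2d10, Cyp2d11, Cyp2d12 and Cyp2d22 did not pass the test. Cyp2d34 was too low to be tested, and Cyp2d13 had no value. The members covered more than 3 orders of magnitude, as the plot of FPKM by library shows.

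**Figure D2:**
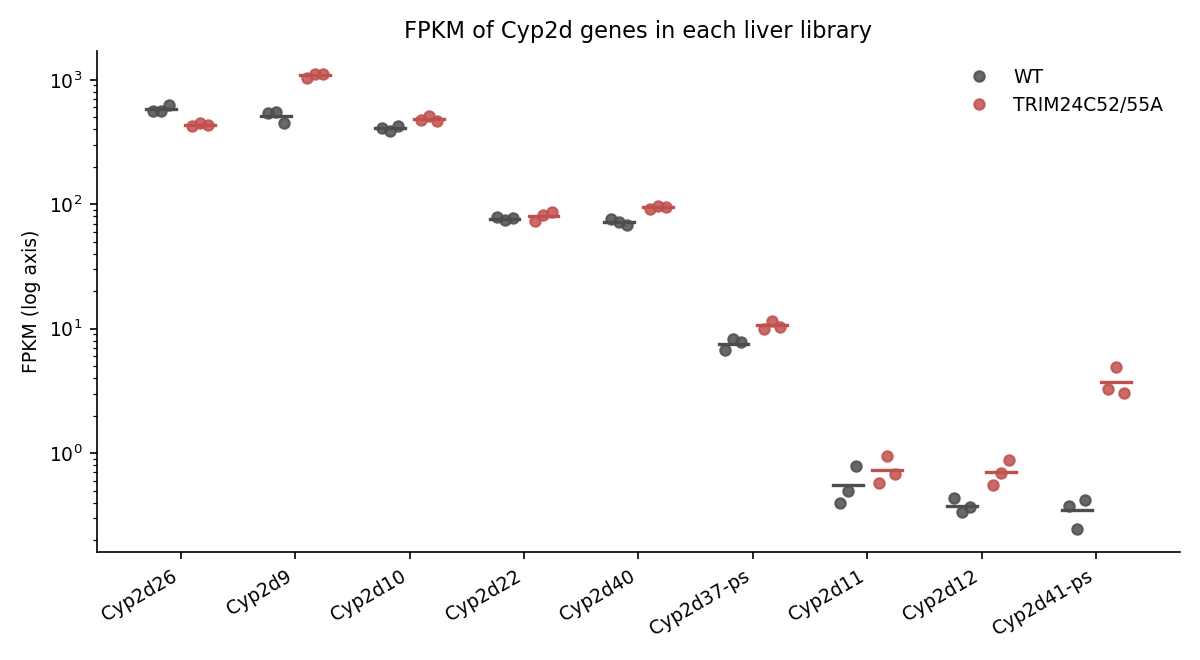
FPKM on a log axis for 7 Cyp2d genes and 2 Cyp2d pseudogenes, with 3 WT libraries in grey and 3 TRIM24C52/55A libraries in red and a line at each mean. Cyp2d9 went from a mean of 513 to 1091 FPKM and Cyp2d26 from 583 to 436 FPKM, with no overlap between the genotypes in either gene.

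Cyp2d9 (ENSMUSG00000068086, chr15:82452377-82456827, plus strand) encodes an enzyme known for hydroxylating testosterone in male mouse liver. Gene positions here and in what follows are those of RefSeq on GRCm38.p6. It measured 541, 554 and 446 FPKM in the 3 WT livers and 1029, 1123 and 1120.2 FPKM in the 3 TRIM24C52/55A livers, in replicate order. Every TRIM24C52/55A liver was well above every WT liver, and the lowest value was that of WT replicate 3. The mean rose from 513 ± 58.7 to 1091 ± 53.4 FPKM (SD, n = 3 each), a ratio of 2.12. The log2 fold change was 1.09 (SE 0.10, 95% interval 0.86 to 1.32, limma adjusted p = 0.0011), and an exact two-sided permutation test of the FPKM gave p = 0.1, the smallest that 3 against 3 allows. Cyp2d9 passed the threshold in all 15 alternative settings run, with log2 fold changes of 0.99 to 1.19. Without TRIM24C52/55A replicate 2, the liver with high Adipoq, Plin1, Lep and Retn, it was 1.07. Ranked by mean FPKM among all genes listed, Cyp2d9 moved from place 152 in WT to place 85 in TRIM24C52/55A liver.

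Cyp2d26 (ENSMUSG00000022445, chr15:82790107-82794452, minus strand) was the member that fell. Its FPKM were 561, 558 and 631 in WT replicates 1 to 3 and 425, 452 and 432 in TRIM24C52/55A replicates 1 to 3. All 3 WT livers were higher than all 3 TRIM24C52/55A livers. The mean went from 583 ± 41.4 to 436 ± 13.9 FPKM (SD, n = 3 each), a ratio of 0.748. The log2 fold change was -0.42 (SE 0.08, limma adjusted p = 0.0199). The adjusted p-value rose above 0.05 without WT replicate 1 (0.0626), WT replicate 2 (0.0506), WT replicate 3 (0.0659) or TRIM24C52/55A replicate 1 (0.0829), while the fold change then lay between -0.45 and -0.36. It also did so without a filter on low values (0.0565) and with quantile normalization (0.0673).

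Cyp2d40 (ENSMUSG00000068083, chr15:82759833-82764122, minus strand), the next gene listed here beside Cyp2d26 apart from a pseudogene, moved the other way. Cyp2d40 measured 76.5, 72.4 and 68.6 FPKM in the 3 WT livers and 91.2, 97.2 and 95.2 FPKM in the 3 TRIM24C52/55A livers, in replicate order. The genotypes did not overlap, and the spread within each was small. The mean rose from 72.5 ± 3.94 to 94.5 ± 3.07 FPKM (SD, n = 3 each), and the log2 fold change was 0.38 (SE 0.07, limma adjusted p = 0.0219). The call was lost without WT replicate 1 (adjusted p = 0.0585), WT replicate 2 (0.0704), WT replicate 3 (0.0895), TRIM24C52/55A replicate 1 (0.0619) or TRIM24C52/55A replicate 3 (0.0513).

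Cyp2d10 (ENSMUSG00000094806, chr15:82402845-82407253, minus strand) has its lowest coordinate, the far end of the gene, 49.5 kb before the start of Cyp2d9. It had 406, 390 and 427 FPKM in the 3 WT livers and 475, 507 and 470 FPKM in the 3 TRIM24C52/55A livers, in replicate order. Here too every TRIM24C52/55A value was above every WT value, but the gap between the groups was narrow. The means were 408 ± 18.9 and 484 ± 20.3 FPKM (SD, n = 3 each), and the log2 fold change was 0.25 (SE 0.07, 95% interval 0.08 to 0.42, limma adjusted p = 0.088), which did not pass the threshold. It passed when libraries were scaled by median of ratios (0.35, adjusted p = 0.0232) or by quantiles (0.35, adjusted p = 0.0304). Cyp2d10 shares 37.0% of its 31-base words with Cyp2d11, which was almost silent, and 18.5% with Cyp2d9.

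Cyp2d22 (ENSMUSG00000061740, chr15:82370527-82380260, minus strand), the first member of the row, has the transcript least shared with other genes. Its FPKM were 78.4, 74.1 and 76.9 in WT replicates 1 to 3 and 73.0, 82.0 and 87.3 in TRIM24C52/55A replicates 1 to 3. The genotypes overlapped, with TRIM24C52/55A replicate 1 the lowest of all libraries and replicate 3 the highest. The log2 fold change was 0.07 with a 95% interval of -0.12 to 0.27 (limma adjusted p = 0.655), so that a change of the size seen in Cyp2d40 lies outside the interval.

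Cyp2d12 (ENSMUSG00000096852) and Cyp2d11 (ENSMUSG00000068085) were detected at under 1 FPKM. Cyp2d12 measured 0.432, 0.334 and 0.366 FPKM in the 3 WT livers and 0.549, 0.692 and 0.872 FPKM in the 3 TRIM24C52/55A livers, in replicate order, or roughly 10 to 12 against 15 to 24 fragments per library. The genotypes did not overlap, and the log2 fold change was 0.30 (limma adjusted p = 0.149). Its WT mean was below 0.5 FPKM, so that Cyp2d12 entered the test through the TRIM24C52/55A livers. As a share of the FPKM of Cyp2d9, with which it holds 21.9% of its 31-base words in common, Cyp2d12 was 0.0604% to 0.0820% in WT and 0.0534% to 0.0779% in TRIM24C52/55A livers. Whether these fragments came from Cyp2d12 or from Cyp2d9 was not tested.

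Cyp2d11 measured 0.394, 0.494 and 0.783 FPKM in the 3 WT livers and 0.580, 0.946 and 0.675 FPKM in the 3 TRIM24C52/55A livers, in replicate order, and the genotypes overlapped. The log2 fold change was 0.16 with a 95% interval of -0.16 to 0.47 (limma adjusted p = 0.546). Cyp2d34 (ENSMUSG00000094559, chr15:82615963-82620956) was listed in TRIM24C52/55A replicate 3 at 0.134 FPKM, about 4 fragments, and in no other library, which was too little to compare.

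Of the 7 members tested, 3 had an adjusted p-value under 0.05, against 7.72% of all 12225 genes tested. Cyp2d9 and Cyp2d40 were called higher, where 1.64% of all genes were, and Cyp2d26 was called lower, where 6.09% of all genes were. The genotypes did not overlap in Cyp2d9, Cyp2d10, Cyp2d12, Cyp2d26 and Cyp2d40, 5 of the 7 members tested, as in 28.9% of all genes tested. Cyp2d12 is among them although it was tested only because of its higher FPKM in the TRIM24C52/55A livers. The median log2 fold change was 0.25 over the 7 members and -0.075 over all genes tested. With 7 members, among them close copies that can share fragments, these counts describe the list and are not a test of it. Only Cyp2d9 among the members was called without WT replicate 1, 2 or 3 or without TRIM24C52/55A replicate 1, which left 1 of 7 members called in each case.

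**Figure D3:**
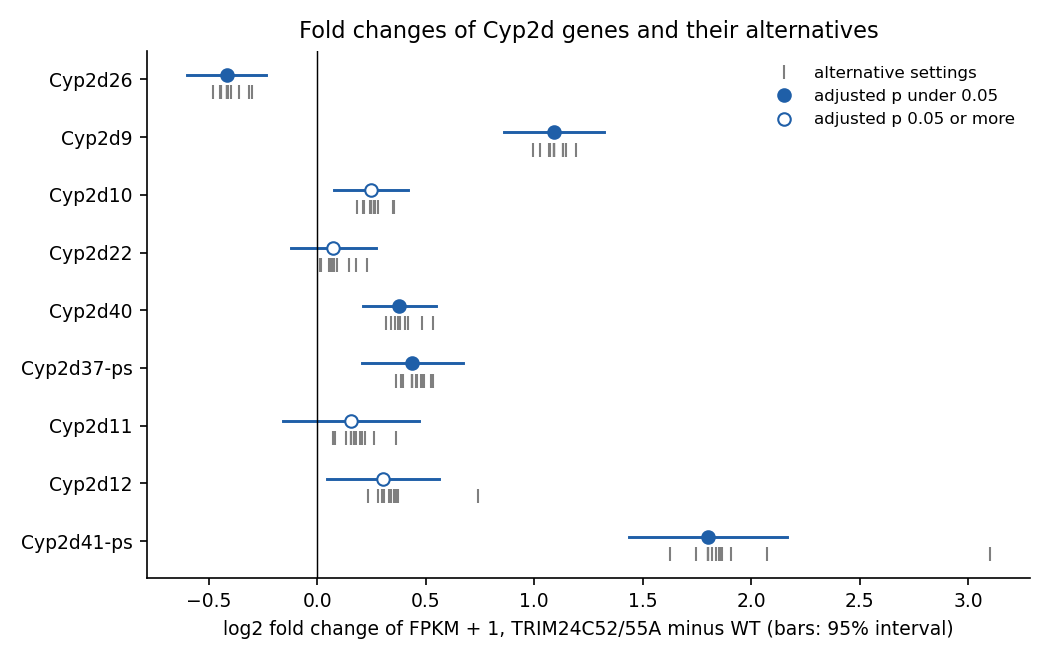
Log2 fold change of FPKM + 1, TRIM24C52/55A minus WT, for 7 Cyp2d genes and 2 Cyp2d pseudogenes, with bars for the 95% interval, filled circles for an adjusted p-value under 0.05, and grey ticks for the values in up to 15 alternative settings. The ticks of Cyp2d9 lie between 0.99 and 1.19 and those of Cyp2d26 between -0.48 and -0.30, so that neither reaches 0.

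Because fragments can be passed between close copies, the FPKM of the 7 members were also added up. The sum leaves out Cyp2d34 and the pseudogenes, which share words with members as well, and so is not closed to such exchange. The sum was 1664, 1649 and 1651 FPKM in the 3 WT livers and 2094, 2263 and 2206 FPKM in the 3 TRIM24C52/55A livers, in replicate order. Every TRIM24C52/55A liver was above the WT livers, which differed little among themselves. The mean went from 1655 ± 8.11 to 2188 ± 85.8 FPKM (SD, n = 3 each), a ratio of 1.32, and from 0.256% to 0.324% of all FPKM. Without Cyp2d9 the sum was 1141 ± 57.3 in WT and 1097 ± 38.5 FPKM in TRIM24C52/55A livers, a ratio of 0.961.

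The make-up of the sum shifted from Cyp2d26 to Cyp2d9. Cyp2d9 held 32.5%, 33.6% and 27.0% of the sum in WT replicates 1 to 3 and 49.1%, 49.6% and 50.8% in TRIM24C52/55A replicates 1 to 3. Cyp2d26 held 33.7%, 33.9% and 38.2% in the WT and 20.3%, 19.97% and 19.6% in the TRIM24C52/55A livers. The ratio of Cyp2d9 to Cyp2d26 within a library, which no scaling of a library by 1 factor can change, was 0.963, 0.992 and 0.707 in WT and 2.42, 2.49 and 2.59 in TRIM24C52/55A livers. Thus Cyp2d26 exceeded Cyp2d9 in all 3 WT livers and Cyp2d9 exceeded Cyp2d26 in all 3 TRIM24C52/55A livers. The mean shares of Cyp2d10 (24.6% and 22.1%), Cyp2d22 (4.62% and 3.69%) and Cyp2d40 (4.38% and 4.32%) moved less.

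**Figure D4:**
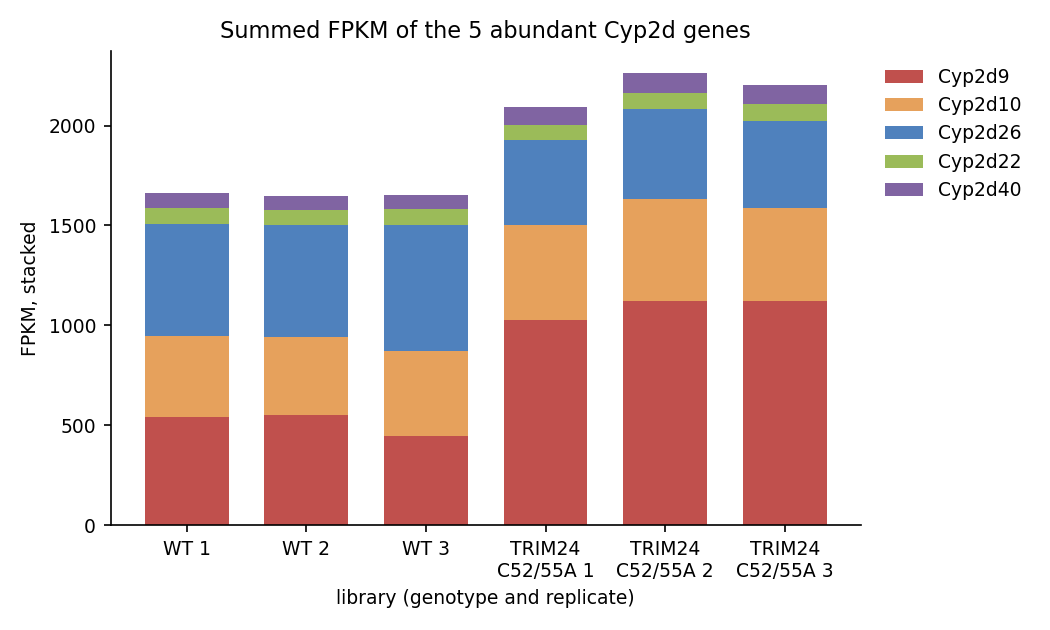
Stacked FPKM of the 5 abundant Cyp2d genes in each library, 3 WT on the left and 3 TRIM24C52/55A on the right, with Cyp2d9 at the base of each bar. The bars reach about 1655 FPKM in WT and 2188 FPKM in TRIM24C52/55A livers, and Cyp2d9 takes 27.0% to 33.6% of the former and 49.1% to 50.8% of the latter.

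By level per kilobase, the order in WT liver was Cyp2d26, Cyp2d9, Cyp2d10, Cyp2d22, Cyp2d40, Cyp2d11 and Cyp2d12. The ranges of the neighbours Cyp2d22 and Cyp2d40 overlapped, as did those of Cyp2d11 and Cyp2d12, and the lowest Cyp2d26 value (558 FPKM) was just above the highest of Cyp2d9 (554 FPKM). In TRIM24C52/55A liver the order was Cyp2d9, Cyp2d10, Cyp2d26, Cyp2d40, Cyp2d22, Cyp2d11 and Cyp2d12, and among neighbours only Cyp2d11 and Cyp2d12 overlapped.

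Pseudogenes of the cluster were measured as well. GENCODE M21 annotates 18 Cyp2d genes, 8 of them protein-coding, and besides the members the files list Cyp2d37-ps and Cyp2d41-ps. Cyp2d41-ps, annotated as an unprocessed pseudogene between Cyp2d40 and Cyp2d26, had 0.377, 0.244 and 0.418 FPKM in the 3 WT livers and 3.26, 4.94 and 3.05 FPKM in the 3 TRIM24C52/55A livers, in replicate order, or roughly 6 to 11 against 75 to 125 fragments. All 3 TRIM24C52/55A livers were far above the WT livers, a ratio of means of 10.8 in FPKM. The log2 fold change on the log2(FPKM + 1) scale was 1.80 (SE 0.16, limma adjusted p = 0.00104) and it passed in all 15 alternatives. The WT mean was below the 0.5 FPKM filter, which Cyp2d41-ps passed through the TRIM24C52/55A livers. It shares 22.0% of its 31-base words with Cyp2d40, and its FPKM was 0.337% to 0.610% of that of Cyp2d40 in WT against 3.20% to 5.09% in TRIM24C52/55A livers, so the 2 did not keep a fixed ratio. Cyp2d41-ps also shares 12.6% of its words with Cyp2d9, which was more abundant than Cyp2d40 and rose 2.12-fold, and 10.3% with Cyp2d10. The source of its fragments was not tested.

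Cyp2d37-ps, a transcribed pseudogene between Cyp2d12 and Cyp2d40, measured 6.72, 8.25 and 7.80 FPKM in the 3 WT livers and 10.02, 11.5 and 10.4 FPKM in the 3 TRIM24C52/55A livers, in replicate order. The genotypes did not overlap, and the log2 fold change was 0.44 (SE 0.10, limma adjusted p = 0.0379). The adjusted p-value was above 0.05 whenever any 1 of the 6 libraries was left out (0.0616 to 0.127).

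No other gene around the cluster was called higher. The region held 18 tested genes whose lowest coordinate lies within 500 kb of the outermost members. Of these, 0 were called higher and 2 lower by limma (0 and 8 at an unadjusted p under 0.05). A fold change below 0 was found in 17, with a median of -0.20 (15 and -0.11 with median-of-ratios scaling, 15 and -0.10 with quantile normalization). Of all genes tested, 65.5% had a fold change below 0, 6.09% were called lower and 19% were lower at an unadjusted p under 0.05. Smdt1, a subunit of the mitochondrial calcium uniporter that lies 113 kb before Cyp2d9, went from 70.8 ± 2.11 to 54.9 ± 2.16 FPKM (SD, n = 3 each; log2 fold change -0.36, limma adjusted p = 0.0223). When 1 library was left out, the Smdt1 call was kept only without TRIM24C52/55A replicate 2, and its adjusted p-value otherwise reached 0.0854. Ndufa6 (-0.28, adjusted p = 0.0874), Cyb5r3 (-0.40, adjusted p = 0.144) and Nhp2l1 (-0.17, adjusted p = 0.309) did not pass with limma. The count of region genes called was 0 with median-of-ratios scaling or quantile normalization and 5 with TPM, in which every library has the same total.

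**Figure D5:**
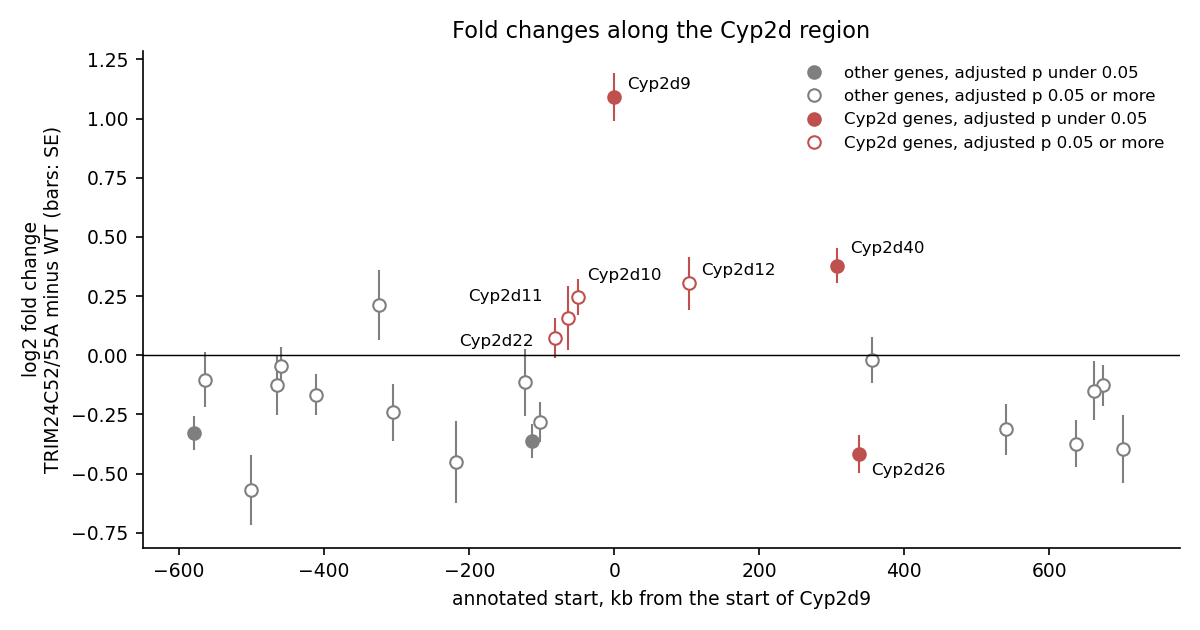
Log2 fold change, TRIM24C52/55A minus WT, against the annotated start of each gene in kb from the start of Cyp2d9, with bars for the SE, Cyp2d genes in red, other genes in grey and filled circles for an adjusted p-value under 0.05. The annotated start is the lowest coordinate of a gene on either strand. Cyp2d9 stands at 1.09 and 17 of the 18 other genes lie below 0.

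Other Cyp2 genes outside the cluster moved in both directions. Of 28 tested, 3 were called higher and 4 lower by limma, with a median log2 fold change of -0.10 that was 0.00 with median-of-ratios scaling and 0.03 with quantile normalization. Over all genes tested 1.64% were called higher and 6.09% lower. Cyp2f2, a P450 of lung and liver known for activating naphthalene, rose from 538 ± 34.0 to 851 ± 66.3 FPKM (SD, n = 3 each; 0.66, limma adjusted p = 0.00623), and it passed in all 15 alternatives. Cyp2c38 fell from 38.0 ± 4.43 to 11.0 ± 4.29 FPKM (-1.76, limma adjusted p = 0.00728), also in all 15. Cyp2c29 (-0.82, adjusted p = 0.0344), Cyp2c67 (0.94, adjusted p = 0.0388) and Cyp2a4 (-1.48, adjusted p = 0.0463) passed with limma, but in 7, 6 and 4 of the 15 alternatives. The Cyp2c29 call was lost without WT replicate 1, 2 or 3 or TRIM24C52/55A replicate 1 (adjusted p of up to 0.115), that of Cyp2c67 without any library but TRIM24C52/55A replicate 2 (up to 0.128) and that of Cyp2a4 without any library (up to 0.12). The Cyp2c and Cyp2a genes are themselves close copies, whose reads may be divided among them. By subfamily, 1 of 5 Cyp2a genes fell (4 were lower at an unadjusted p under 0.05, as were 19% of all genes tested, and all 5 were below 0, with a median of -1.28), 1 of 13 Cyp2c genes rose and 2 fell (4 and 3 at an unadjusted p under 0.05), the single Cyp2e gene fell, the Cyp2f and Cyp2u genes rose, and 0 of 3 Cyp2b and 0 of 3 Cyp2j genes passed with limma (1 and 0 at an unadjusted p under 0.05).

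P450s known to differ between the sexes were examined because Cyp2d9 is one of them. All 3 male-biased P450s of the list rose, with a median log2 fold change of 1.94, where 1.64% of all genes tested were called higher and their median was -0.075. Cyp4a12a, a fatty acid hydroxylase of male liver, rose from 26.6 ± 3.07 to 85.5 ± 5.86 FPKM (SD, n = 3 each; 1.65, limma adjusted p = 0.00016), and its near copy Cyp4a12b rose from 7.32 ± 3.95 to 32.5 ± 1.37 FPKM (2.12, limma adjusted p = 0.00662). Cyp7b1, the oxysterol hydroxylase of the acidic bile acid pathway, rose from 52.5 ± 6.96 to 212 ± 77.5 FPKM (1.94, limma adjusted p = 0.00319). All 3 passed in each of the 15 alternatives.

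Of 7 female-biased P450s tested (of 10 named), 2 fell and 0 rose by limma (4 and 0 at an unadjusted p under 0.05), with a median of -0.60. Among all genes tested 6.09% were called lower, 19% were lower at an unadjusted p under 0.05 and 65.5% had a fold change below 0. Cyp17a1, an enzyme of androgen synthesis, fell from 19.97 ± 4.17 to 1.75 ± 0.871 FPKM (SD, n = 3 each; -2.96, limma adjusted p = 0.000494) and passed in all 15 alternatives, whereas Cyp2a4 did not. Cyp39a1 (-0.60, adjusted p = 0.0894), Cyp2b9 (-1.97, adjusted p = 0.228) and Cyp2b13 (0.31, adjusted p = 0.74) did not pass with limma. Cyp2b9 varied widely within the genotypes, with 38.2 ± 35.1 FPKM in WT and 11.3 ± 12.5 FPKM in TRIM24C52/55A livers, and leaving out 1 library gave -2.85 (without TRIM24C52/55A replicate 3) to -1.02 (without TRIM24C52/55A replicate 2). Cyp2b13 was -0.23 without TRIM24C52/55A replicate 3, and Cyp39a1 passed without TRIM24C52/55A replicate 2, the liver with high Adipoq, Plin1, Lep and Retn (-0.79, adjusted p = 0.0215). These lists were written with earlier results of these data known, and their counts are therefore descriptive.

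Genes whose products serve P450 enzymes were, where called, lower. The list for electron transfer to P450 held Por, the P450 reductase, Cyb5a, Cyb5b and Cyb5r3, and also the haem-binding Pgrmc1 and Pgrmc2. Of its 6 genes, 0 were called higher and 2 lower by limma (0 and 6 at an unadjusted p under 0.05). All 6 had a fold change below 0, with a median of -0.45. Of all genes tested 6.09% were called lower, 19% were lower at that unadjusted p and 65.5% were below 0. Pgrmc2, a haem-binding membrane protein, fell from 36.9 ± 3.47 to 23.99 ± 1.16 FPKM (SD, n = 3 each; -0.60, limma adjusted p = 0.00896) in all 15 alternatives. Cyb5a, cytochrome b5, went from 619 ± 67.1 to 436 ± 44.4 FPKM (-0.50, limma adjusted p = 0.0301), a call kept in 8 of 15 alternatives, and lost without WT replicate 1, 2 or 3 or TRIM24C52/55A replicate 1 (adjusted p of up to 0.112). Por (-0.56, adjusted p = 0.0796), Pgrmc1 (-0.32, adjusted p = 0.0987) and Cyb5b (-0.32, adjusted p = 0.185) did not pass with limma. Of 8 genes of haem synthesis 0 were called by limma (2 lower at an unadjusted p under 0.05), and Alas1, whose product catalyses the rate-limiting step, varied from 207 ± 61.3 in WT to 90.2 ± 84.5 FPKM in TRIM24C52/55A livers (SD, n = 3 each; -1.63, limma adjusted p = 0.162). Without TRIM24C52/55A replicate 3 it was -2.38 and passed (adjusted p = 0.0151), and without TRIM24C52/55A replicate 2 it was -0.88 (adjusted p = 0.225). Alad (-0.17, adjusted p = 0.276), Cpox (-0.27, adjusted p = 0.0901), Fech (0.03, adjusted p = 0.87) and Urod (-0.18, adjusted p = 0.243) did not pass with limma either.

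Among regulators of liver P450 genes, 22 of 23 were tested, 0 were called higher and 3 lower by limma (1 and 4 at an unadjusted p under 0.05), with a median of 0.05 (-0.01 with TPM, 0.14 with median-of-ratios scaling and 0.16 with quantile normalization). The share called lower among all genes tested was 6.09%, and 19% were lower at an unadjusted p under 0.05, close to the 4 of 22 regulators (18.2%). Nr1i3, the nuclear receptor CAR, fell from 120 ± 19.6 to 68.3 ± 7.95 FPKM (SD, n = 3 each; -0.80, limma adjusted p = 0.0127) and passed in 13 of 15 alternatives, with 0.0516 without WT replicate 1. Cebpb, a transcription factor of the C/EBP family, went from 22.2 ± 4.76 to 11.3 ± 3.44 FPKM (-0.94, limma adjusted p = 0.0428). The Cebpb call was kept in 5 of 15 alternatives and was lost without WT replicate 1, 2 or 3 or TRIM24C52/55A replicate 1 (adjusted p of up to 0.128). Hnf4a, a nuclear receptor central to hepatocyte gene expression, had 148 ± 2.63 and 152 ± 5.57 FPKM (0.04, limma adjusted p = 0.798), and Ghr, the growth hormone receptor, 186 ± 11.5 and 188 ± 16.2 FPKM (0.01, limma adjusted p = 0.956).

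The genes whose pattern over the 6 libraries lay nearest to that of Cyp2d9 were Mup18, Cd4, Kcnk1, Mup9 and Sort1, by the mean absolute difference of mean-centred log2(FPKM + 1). That distance was 0.08 for Mup18, 0.09 for Cd4 and Kcnk1, and 0.11 for Mup9 and Sort1. Mup18 and Mup9 encode major urinary proteins, which the liver secretes in large amounts. Mup18 went from 1571 to 3256 FPKM and Mup9 from 2130 to 4395 FPKM in the mean of 3 livers each, but Mup genes are near-identical copies whose reads may be divided among them. Sort1, the sorting receptor sortilin, went from 1.93 to 4.70 FPKM, Cd4, a surface protein of T cells, from 0.384 to 1.99 FPKM, and Kcnk1, a potassium channel, from 0.196 to 1.26 FPKM, so that near likeness on this scale joins genes of very different levels. Cd4 and Kcnk1 had WT means below 0.5 FPKM and were tested only because of their higher FPKM in the TRIM24C52/55A livers. Cd3e, another T cell gene, measured 0.416 to 0.877 FPKM in WT and 0.069 to 0.515 FPKM in TRIM24C52/55A livers. Whether the Cd4 fragments came from T cells was not tested.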

How the data were processed

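RNA from mouse liver was sequenced in 6 libraries, each taken as 1 mouse, and the authors deposited FPKM per gene and library. The submitters' notes name the build GRCm38 and the tools bcl2fastq, Salmon 0.14.0 and DESeq2 1.30.0 without saying what each was used for, and the counting of fragments shared between genes is not given in the sources used here. Libraries were grouped by the genotype in their labels. A gene missing from a library was set to 0, although a missing value need not mean that the gene was not expressed. The 12225 of 21528 genes whose mean reached 0.5 FPKM were tested in limma 3.58.1 (R 4.3.3) on the log2(FPKM + 1) scale (eBayes with a trend, Benjamini-Hochberg adjustment over all genes), checked on simulated data. Each library is labelled as a separate replicate, and p-values set the difference between genotypes against the spread between replicates. FPKM keep no counts, so fragment numbers derived from low-value steps are approximate.

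The members, the lists and the tests were chosen with earlier results of these data known. The rule for named genes took all members, all other Cyp2d rows, at most 5 genes per list (called genes by size of change, then by mean FPKM) and the 5 genes nearest to Cyp2d9. Por, Cd3e, the marker genes without a value in some or all libraries and the single Cyp2e, Cyp2f and Cyp2u genes are named beside it. Lists covered other Cyp2 genes, the cluster region, P450 electron transfer, haem synthesis, regulators, sex-biased P450s and cell type markers. Alternatives were a pseudocount of 0.1, no filter, a mean of at least 1 FPKM, TPM, scaling by median of ratios or by quantiles, eBayes without a trend or with a robust one, a replicate block and each library left out. A planned comparison of proteins was replaced by one of GENCODE M21 transcripts (Biopython 1.88), and promoters came from RefSeq (GRCm38.p6). Motifs were counted in the 250 bases before the start; in all 300 bases of the promoter table TATAAA occurred in 13.6% of promoters and the other motifs still had 0 matches in members. Some genes that the rule would name are not reported here.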

Additional observations from a re-analysis of the deposited data

How the results depend on the processing

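Over the 7 members tested, each fold change kept its direction in every alternative run. Cyp2d9 stayed past the threshold throughout (adjusted p 0.000766 to 0.0142), while Cyp2d11, Cyp2d12 and Cyp2d22 never passed it. Cyp2d26 did not pass without a filter (-0.42, adjusted p = 0.0565, with more genes tested) or with quantile normalization (-0.30), Cyp2d10 passed with median-of-ratios scaling (0.35) and quantile normalization (0.35), and the cause was not tested. Leaving out 1 library gave -0.45 to -0.36 for Cyp2d26, 0.34 to 0.42 for Cyp2d40 and 1 to 3 members called. The log2 ratio of the summed FPKM, 0.40, was 0.34 with TPM and 0.51 with median-of-ratios scaling, and the rise in the share of Cyp2d9 stayed between 16.8 and 20.1 percentage points.

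Genes called, of 944 in all, numbered 1555 with TPM, 656 with median-of-ratios scaling (250 higher and 406 lower, against 200 and 744), 633 with quantile normalization (255 and 378), 347 without a filter (95 and 252) and 296 to 1272 when 1 library was left out. The median log2 fold change of all genes went from -0.075 to 0.01 with either scaling and to -0.14 with TPM.

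Among the other lists, without a filter 1 region gene, 2 other Cyp2 genes, 1 electron transfer gene, 0 regulators and 1 female-biased P450 were called. With TPM there were 5 region genes, 4 electron transfer genes and 1 haem synthesis gene. With median-of-ratios scaling there were 0 region genes, 4 other Cyp2 genes and 1 each of the electron transfer genes, regulators and female-biased P450s, and with quantile normalization 0 region genes and 1 each of the latter 3. Without a variance trend 1 region gene, 1 regulator and 1 female-biased P450 were called, and with a robust trend 1 female-biased P450. Leaving out 1 library gave 0 to 2 region genes, 2 to 8 other Cyp2 genes, 1 to 3 electron transfer genes, 0 to 1 haem synthesis genes, 0 to 3 regulators and 1 to 2 female-biased P450s, and the 3 male-biased P450s were called in all alternatives.

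Same-numbered mice of the genotypes did not deviate together (correlations of -0.12, -0.10 and 0.00 across genes), so the numbers do not pair them. With the replicate block Cyp2d40 did not pass (0.38, adjusted p = 0.0658), 2 members, 0 region genes and 1 regulator were called, and 578 genes in all. That block also gave 3 electron transfer genes and 3 female-biased P450s, and Cyp2b9 passed by limma (-1.97, adjusted p = 0.049). Depth limits Cyp2d11, Cyp2d12 and Cyp2d34, which rest on few fragments.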
